A study of Mus musculus with 62 samples.

Results

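The replication-dependent histone genes supply the bulk of the H1, H2A, H2B, H3 and H4 protein that packs DNA into chromatin. They were taken here as the rows of the deposited count matrix whose GENCODE vM21 symbol starts with Hist1h, Hist2h, Hist3h or Hist4h, without symbols that hold -ps. This gave 69 genes of 53801 identifiers, and 1 -ps symbol was dropped. By class there were 6 H1, 20 H2A, 18 H2B, 12 H3 and 13 H4 genes. Most lie on mouse chromosome 13 (56 genes, the Hist1 cluster), with 10 on chromosome 3 (Hist2), 2 on chromosome 11 (Hist3) and 1 on chromosome 6 (Hist4h4). The annotation calls 2 of the 69, Hist1h2aj and Hist1h2al, pseudogenes.

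The study sequenced RNA of CD11b+ cells, a myeloid surface marker, which the series title calls microglia, from mice of 4 genotypes. WT is wild type, NLRP3 lacks Nlrp3, the sensor of an inflammasome, APPPS1 carries APP/PS1 transgenes that model Alzheimer's disease, and APPPS1_NLRP3 has both changes. Each genotype was taken at 4, 6 and 12 months (4m, 6m, 12m). A further set of 12-month libraries of each genotype holds the word Mxo4 in its titles; the sources used here do not say what it stands for, and these are called the tagged libraries. The 62 libraries fall into 16 groups of 3 to 5, with 13 tagged libraries against 16 untagged ones at 12 months. The labels name no promoter for the transgenes, no transgenic line and no pooling of animals, and do not say that libraries come from separate animals, so a p-value here speaks of the spread among libraries, which may be technical.

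Replication-dependent histone genes mostly lack introns, are transcribed mainly in S phase, when DNA is copied, and their mRNAs end in a conserved stem-loop instead of a poly(A) tail. The stem-loop is bound by SLBP and cut by a complex that includes the U7 small nuclear RNA, and the mRNAs are degraded when S phase ends. Cells that no longer divide make polyadenylated transcripts from some of these genes by reading past the stem-loop to a downstream poly(A) signal. The library kit, SMART-Seq v4, starts its copy from the poly(A) tail, so the levels below are those of transcripts that the kit could prime.

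The stem-loop is shown for 10 genes that the results below turn on, to let the classes and the genes that changed be compared. Each line gives 26 bases of the sense strand, 5′ to 3′, in GRCm38, with the 16 bases of the stem-loop in capitals and 5 flanking bases on each side.
Hist1h1c (chr13:23739507-23739532, + strand): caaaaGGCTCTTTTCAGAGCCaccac
Hist1h1d (chr13:23555782-23555807, + strand): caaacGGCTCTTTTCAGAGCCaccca
Hist1h1e (chr13:23621777-23621802, − strand): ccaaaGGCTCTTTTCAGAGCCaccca
Hist3h2a (chr11:58955167-58955192, + strand): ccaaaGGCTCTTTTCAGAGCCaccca
Hist1h2be (chr13:23585526-23585551, − strand): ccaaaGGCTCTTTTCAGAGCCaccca
Hist1h3a (chr13:23761885-23761910, − strand): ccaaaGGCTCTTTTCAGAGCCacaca
Hist1h3c (chr13:23745042-23745067, − strand): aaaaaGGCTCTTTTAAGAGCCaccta
Hist1h4d (chr13:23581945-23581970, + strand): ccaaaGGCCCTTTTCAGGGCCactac
Hist1h4i (chr13:22040961-22040986, − strand): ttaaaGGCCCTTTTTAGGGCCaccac
Hist4h4 (chr6:136803993-136804018, − strand): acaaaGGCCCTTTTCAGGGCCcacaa

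A stem-loop was found in the annotated transcripts of 46 of the 69 genes, 22 to 59 bases after the stop codon. Every stem paired without a mismatch. The 46 genes shared 8 distinct sequences, and the commonest, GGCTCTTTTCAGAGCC, stood in 26 genes. The first 4 bases followed the class: all 4 H1, 11 H2A, 10 H2B and 9 H3 stem-loops began with GGCT, whereas 10 of the H4 stem-loops began with GGCC and 2 with GGTC. Annotated transcripts ran more than 100 bases past the stem-loop in 23 genes, and ended within 100 bases of it in 23 others. The longest such run among the 10 genes shown belonged to Hist1h1d, 4884 bases, followed by 2445 bases in Hist4h4, while Hist1h3a and Hist1h3c ended 37 and 74 bases past it. AATAAA or ATTAAA, letters of a poly(A) signal, stood in the last 50 bases of Hist1h1c, Hist3h2a, Hist1h2be, Hist1h4i and Hist4h4. Neither stood there in Hist1h1d, Hist1h1e and Hist1h4d, which also run past the stem-loop. No stem-loop was found in 23 genes; 4 of these have a long 3′ UTR, among them Hist1h2bc and Hist2h2be, and 19 have a short one or none annotated.

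Promoters of 62 of the genes were found in RefSeq (GRCm38.p6), each from 250 bases before to 50 bases after the start. The letters CCAAT, on either strand, stood in 85.5% of them and in 37.4% of all 32851 promoters of that length. By class CCAAT was in all 6 H1, 18 H2A, 16 H2B and 10 H3 promoters and in 3 of 12 H4 promoters. TATAAA stood in 56.5%, against 13.6% of all. The octamer ATTTGCAT stood in 22.6%, against 1.7% of all, and its 14 matches were 7 H2A and 7 H2B genes. Any of TTTGGCGC, TTTCCCGC and TTTCGCGC, letters of E2F sites, stood in 16.1%, against 1.8% of all. No one of these strings of letters contains another. The promoters of Hist1h1d and Hist4h4, which had the 2 smallest adjusted p of the tested histone genes in the tag comparison below, are shown because they differ in these letters. Matches to any of the motifs are in capitals, on either strand: Hist1h1d holds CCAAT and TATAAA, and Hist4h4 holds none of them in this window.
Hist1h1d (chr13:23554782-23555081, + strand): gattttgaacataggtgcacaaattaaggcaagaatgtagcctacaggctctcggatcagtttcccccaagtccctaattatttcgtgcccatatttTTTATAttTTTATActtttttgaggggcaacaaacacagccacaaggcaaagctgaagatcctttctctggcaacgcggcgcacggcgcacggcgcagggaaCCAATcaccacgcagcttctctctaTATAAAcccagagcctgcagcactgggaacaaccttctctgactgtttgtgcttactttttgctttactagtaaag
Hist4h4 (chr6:136804382-136804681, − strand): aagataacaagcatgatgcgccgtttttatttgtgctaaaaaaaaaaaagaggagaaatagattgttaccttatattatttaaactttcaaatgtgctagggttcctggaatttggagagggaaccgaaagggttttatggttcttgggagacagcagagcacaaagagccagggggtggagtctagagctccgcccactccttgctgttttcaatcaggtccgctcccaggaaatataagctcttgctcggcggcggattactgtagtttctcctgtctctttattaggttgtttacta

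The median library had 18392142 counts and the deepest 27604393. A library of 659 counts, APPPS1_6m replicate 21, was fitted with the others but gives no level, so levels rest on 61 libraries. The next lowest were NLRP3_12m replicate 45 with 1394435 counts, APPPS1_12m replicate 41 with 6187249, and then 11484943. Levels are CPM, counts scaled to the library's total with TMM factors. Nlrp3 lay at 60.4 to 271 CPM in the 30 libraries of groups with the gene and at 0 to 2.27 CPM in the 31 without it. The summed level of 8 microglia markers at 12 months was 32450 to 39770 CPM in the tagged libraries and 31950 to 46560 CPM in the untagged ones. Sex is not labelled; Xist and 4 Y-linked genes read 6 tagged libraries as female and 7 as male, and 8 untagged 12-month libraries as each. All WT_12m and APPPS1_12m libraries read as female and all NLRP3_12m and APPPS1_NLRP3_12m libraries as male, and all 4-month libraries as female. The 90 pairs of libraries within groups differed by more than counting error in every case, the lowest chi-square per degree of freedom being 6.55.

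Most of the histone genes were close to undetected. No count was found for Hist1h2aa and Hist2h3c1, and 6 genes had 3 counts or fewer in every group. Hist2h3c1 shares 100% of its exonic bases with another gene, and none of its 125-base stretches is unique to it. Its lack of counts therefore need not mean a lack of RNA. A mean over 5 CPM was reached by 11 genes, 8 lay from 1 to 5 CPM and 50 lay at 1 CPM or below. The filter on low counts left 36 of the 69 genes for testing, and the 33 untested ones had means of at most 0.189 CPM. The summed level over the 69 genes was 225.6 CPM at the median library, from 162.7 to 427.4 CPM. The 3 genes with most counts held 54% of this sum and the first 10 held 84.8%.

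Per kilobase of annotated exon, Hist1h2bc, an H2B gene (ENSMUSG00000018102, chr13 23684199 to 23692908, + strand), was highest at 47.8 CPM per kb. Hist1h1c, which encodes the linker histone H1.2 (ENSMUSG00000036181, chr13 23738808 to 23740367, + strand), followed at 29.3 CPM per kb. Next were the H2B gene Hist1h2bg at 15.5, the H4 gene Hist1h4d at 12.9 and the H2A gene Hist3h2a at 12.7 CPM per kb. Lower down came Hist1h3e at 4.74, Hist1h2ae at 3.83, Hist1h4i at 3.77, Hist4h4 at 3.75, Hist1h2be at 3.67, Hist1h1e at 3.40 and Hist1h3d at 3.21 CPM per kb. Hist1h2ac lay at 2.45, Hist2h2be at 1.92, Hist2h4 at 1.68 and Hist1h1d at 1.22 CPM per kb. These 16 were the genes with the highest mean CPM, and the order per kilobase is among them. Genes that end at their stem-loop, all outside the 16, reached at most 4.40 CPM per kb.

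**Figure D1:**
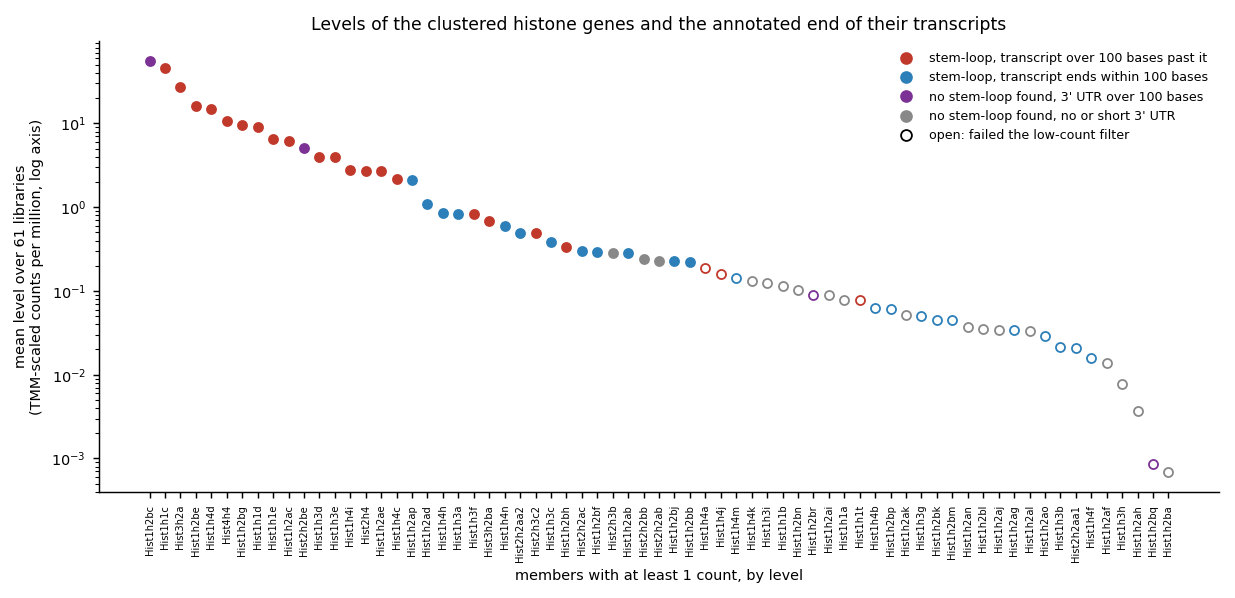
Mean level of each histone gene that had any count, in CPM on a log axis, one point per gene over 61 libraries, coloured by how its annotated transcripts end; open points did not pass the filter on low counts. The genes over 5 CPM end beyond a stem-loop or have a long 3′ UTR without one, and the open points all lie at or below 0.189 CPM.

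Genes whose transcripts run past the stem-loop held 70.4% of the summed CPM, with a median of 2.63 CPM per kb over the 23 genes. The 4 genes with a long 3′ UTR and no stem-loop held 25.4%, nearly all of it from Hist1h2bc and Hist2h2be. Genes that end at the stem-loop held 3.5%, with a median of 0.430 CPM per kb over the 23, and the remaining 19 held 0.7%. By class, H2B genes held 37.3% of the sum, H1 26%, H2A 17.3%, H4 14.8% and H3 4.6%. Of the 69 genes 26 had a unique copy for under 50% of their 125-base windows, 8 of the 36 tested ones among them, and 5 genes had none. How the authors treated reads with several matches is not given in the sources used here, so levels of those genes are uncertain. Exonic bases were shared with another gene in 26 cases, for example between Hist1h2be and Hist1h1e on the same strand and over 33% of Hist3h2a.

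Over the 16 groups the genes differed in how much they varied. Hist1h4d ranged 1.56-fold between its lowest and highest group mean and Hist3h2a 1.59-fold. Hist1h1d, the linker histone H1.3, ranged 7.67-fold, from 4.26 ± 1.38 CPM (SD, n = 3) in APPPS1_6m to 32.7 ± 13.8 CPM (SD, n = 3) in tagged APPPS1_NLRP3. Hist1h1e, the linker histone H1.4, ranged 3.52-fold, Hist4h4 3.33-fold and Hist1h1c 3.30-fold. Tagged APPPS1_NLRP3 had the highest group mean for 14 of the 36 tested genes, APPPS1_12m for 8 and NLRP3_4m for 6. Among the 16 genes of highest mean CPM these counts were 6, 3 and 4. One library, NLRP3_4m replicate 15, was the highest of all 61 for 11 of the 36. For these counts no share over all genes is given, so they describe the histone genes only. The summed level was 390.2 ± 33 CPM (SD, n = 3) in tagged APPPS1_NLRP3 and 301.0 ± 66.6 CPM (SD, n = 4) in NLRP3_4m, while the other 14 group means lay from 190.2 CPM in WT_12m to 267.5 CPM in APPPS1_12m.

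**Figure D2:**
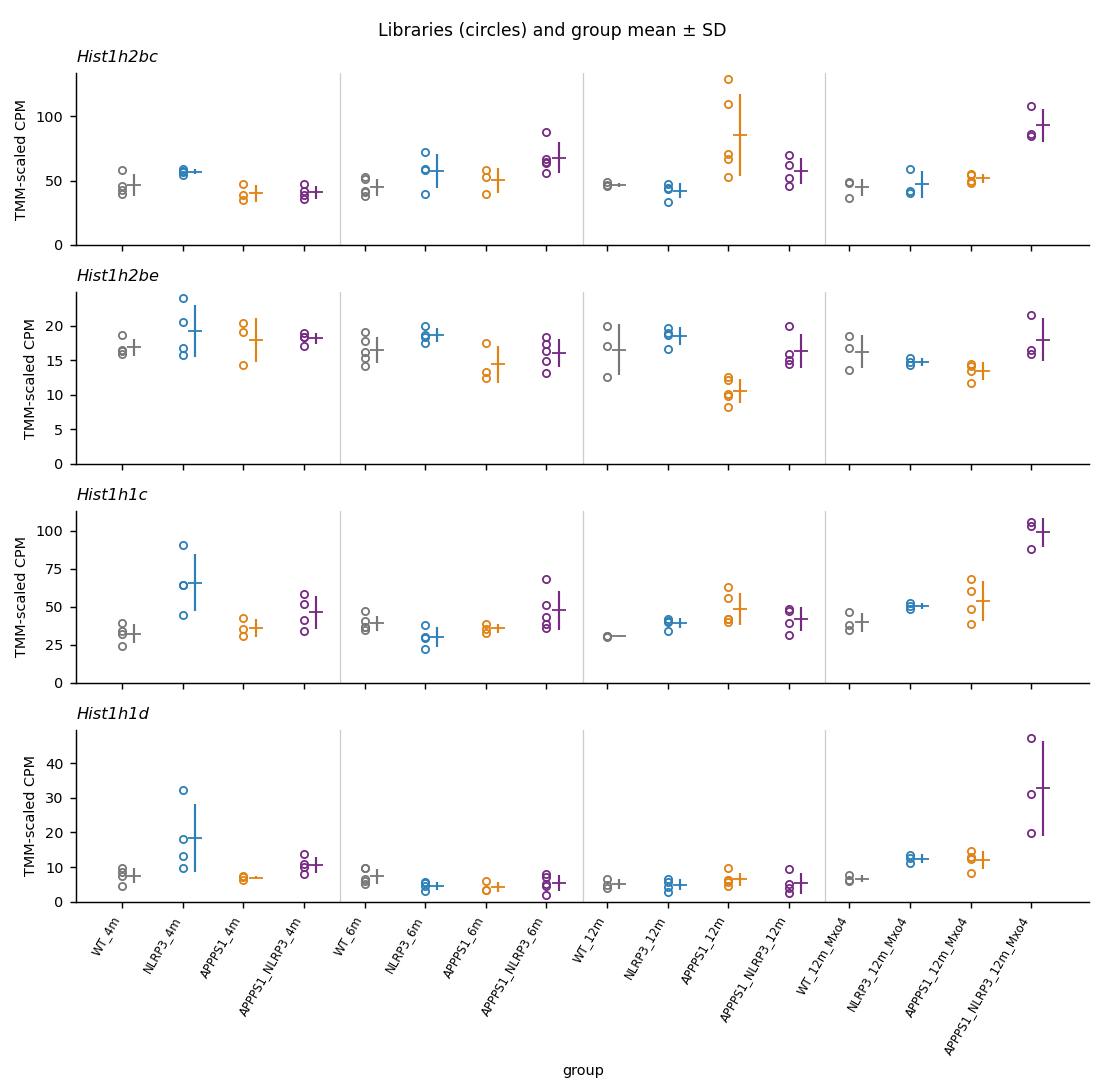
Levels of Hist1h2bc, Hist1h2be, Hist1h1c and Hist1h1d in CPM over the 16 groups, with a circle per library and the mean ± SD of each group. Hist1h2bc is high in APPPS1_12m and tagged APPPS1_NLRP3, Hist1h2be is lowest in APPPS1_12m, and Hist1h1c and Hist1h1d are highest in tagged APPPS1_NLRP3.

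Tagged and untagged 12-month libraries were compared first as the mean of the differences within the 4 genotypes. In edgeR's quasi-likelihood test with Benjamini-Hochberg adjustment over all 19865 genes tested, 10 of the 36 histone genes were higher and 1 was lower in the tagged libraries (30.56%), against 19% of all genes tested, 1508 higher and 2276 lower. The median difference was 0.23 on the log2 scale over the 36 and −0.02 over all genes. All 3 tested H1 genes were among those that rose, with 2 of 9 H2A, 1 of 10 H2B, 2 of 7 H3 and 2 of 7 H4 genes; the 1 that fell is an H2B gene. By annotated end the rises were 6 of 19 genes that run past the stem-loop, 3 of 12 that end at it, 0 of 2 with a long 3′ UTR only, and 1 of 3 of the rest. Of the 11, Hist1h3c and Hist2h2ab entered the test through their tagged or other high libraries: Hist1h3c reached the filter's level of 0.544 CPM in 6 of 13 tagged and 0 of 16 untagged libraries, and Hist2h2ab in 2 and 0. The calls of Hist1h3c and Hist2h2ab are therefore descriptions, and the counts above include them. In bulk RNA fewer cells of a type and less RNA per cell cannot be told apart.

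**Figure D3:**
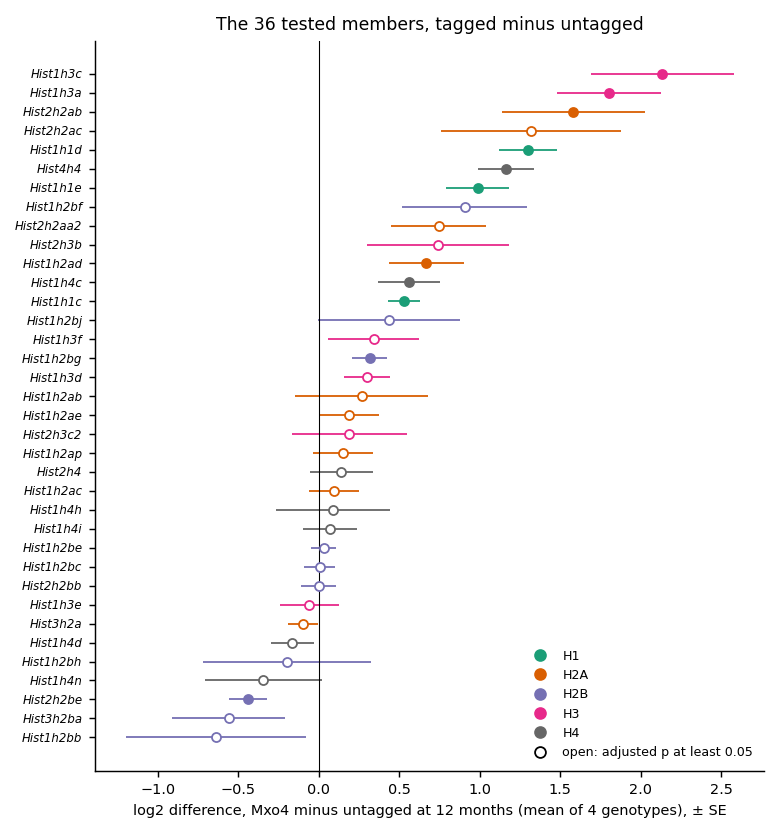
Tagged minus untagged log2 differences, mean of the 4 genotypes, for the 36 tested histone genes, with bars of 1 standard error, coloured by class; filled points passed an adjusted p of 0.05. Filled points to the right of 0 are 10 genes and the single filled point to the left is Hist2h2be, at −0.44.

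The H1 genes, whose proteins bind the linker DNA between nucleosomes, rose in each case. Hist1h1d lay at 6.27, 5.98 and 7.74 CPM in tagged WT against 6.65, 4.70 and 3.89 in untagged WT, and at 13.6, 12.7 and 11.1 CPM in tagged NLRP3 against 6.52, 4.38, 5.76 and 2.90. It lay at 8.26, 12.3, 12.9 and 14.7 CPM in tagged APPPS1 against 5.58, 6.20, 6.26, 4.62 and 9.76, and at 19.8, 47.3 and 31 CPM in tagged APPPS1_NLRP3 against 4.09, 9.34, 5.16 and 2.50. The sets did not overlap in NLRP3 and in APPPS1_NLRP3, and overlapped in WT and APPPS1. Over the genotypes its log2 difference was 1.30 ± 0.18 (SE; adjusted p = 6.625e-07, edgeR).

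Hist1h1c lay at 34.5, 46.5 and 38.3 CPM in tagged WT against 30.7, 30.7 and 30.2, and at 50.3, 52.7 and 48.7 CPM in tagged NLRP3 against 40.3, 40.4, 41.9 and 34.1. In APPPS1 the tagged values of 38.4, 60.3, 48.7 and 68.1 CPM overlapped the untagged 42, 55.7, 39.7, 42 and 63.1. Tagged APPPS1_NLRP3 reached 87.9, 105.6 and 103.3 CPM against 31.7, 48.5, 47.3 and 39.4, so that the sets were apart in every genotype but APPPS1. The log2 difference was 0.53 ± 0.10 (SE; adjusted p = 0.000109). Hist1h1e rose by 0.99 ± 0.20 (SE; adjusted p = 0.000224), from a median of 5.30 CPM in the 16 untagged libraries (2.50 to 8.55) to 10.3 CPM in the 13 tagged ones (5.19 to 17.3), and 8 of the 13 lay above all 16. Part of Hist1h1e's exons (25.7%) lies under Hist1h2be, whose own tagged median was 14.7 CPM against 15.5 untagged.

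**Figure D4:**
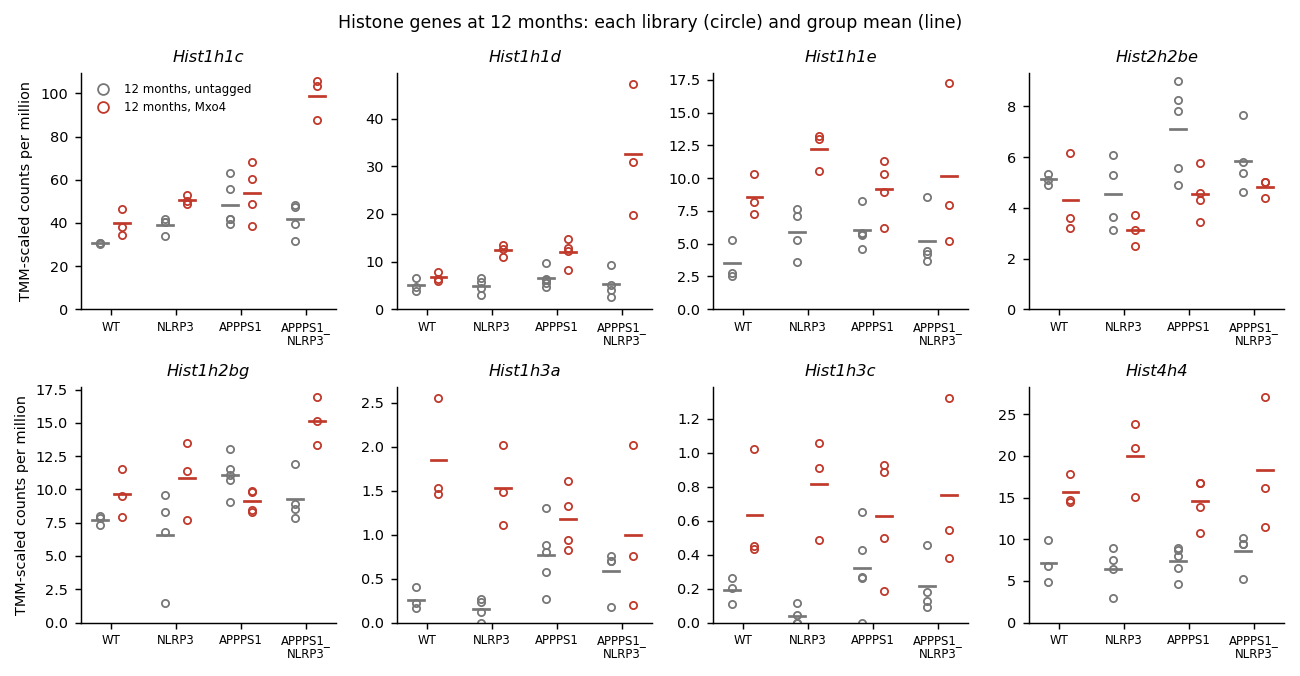
Levels in CPM of 8 histone genes in each 12-month library, untagged in grey and tagged in red, by genotype, with a circle per library and a line at the group mean. For Hist4h4 every tagged circle lies above every untagged one, and for Hist1h1d and Hist1h1c the tagged APPPS1_NLRP3 libraries stand highest.

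Hist4h4 (ENSMUSG00000096010, chr6 136801553 to 136804415, − strand) encodes histone H4, as the clustered H4 genes do, from a place of its own on chromosome 6. It lay at 14.5, 14.7 and 17.9 CPM in tagged WT against 9.87, 6.83 and 4.84, and at 21, 15.1 and 23.9 CPM in tagged NLRP3 against 7.56, 6.41, 8.95 and 2.90. In APPPS1 it lay at 16.7, 10.8, 16.8 and 13.9 CPM tagged against 4.64, 6.56, 7.96, 8.70 and 8.89, and in APPPS1_NLRP3 at 11.5, 27.1 and 16.2 CPM against 5.18, 9.41, 9.44 and 10.1. All 13 tagged libraries were above all 16 untagged ones, the only tested histone gene without overlap. The share of all genes without overlap is not given, here or in the other comparisons. A lack of overlap is therefore only a description of these libraries. The log2 difference was 1.16 ± 0.17 (SE; adjusted p = 2.76e-06). The other H4 gene that rose, Hist1h4c, changed by 0.56 ± 0.19 (SE; adjusted p = 0.0350).

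The 2 H3 genes that rose are low. Hist1h3a lay at 1.46 CPM at the tagged median (0.205 to 2.56) and at 0.334 CPM at the untagged one (0 to 1.30), and 8 of the 13 tagged libraries were above all untagged ones. Its log2 difference was 1.80 ± 0.32 (SE; adjusted p = 5.05e-05), from 301 counts in the tagged and 116 in the untagged libraries. Hist1h3c lay at 0.547 CPM (0.188 to 1.32) against 0.153 CPM (0 to 0.651), a log2 difference of 2.13 ± 0.44 (SE; adjusted p = 0.000391) from 159 and 45 counts. Both end close to their stem-loop in the annotation, and the call of Hist1h3c is a description, as said above.

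Among the core histones that pair as H2A and H2B, 3 genes rose and 1 fell. Hist2h2ab, an H2A gene with 43.8% unique windows that shares 68.2% of its exonic bases with another gene, rose by 1.58 ± 0.45 (SE; adjusted p = 0.00883) from 36 to 95 counts. It reached the filter's level in 3 of 61 libraries, and its call is a description. Without APPPS1_NLRP3_12m_Mxo4 replicate 52 its adjusted p was 0.0527. Hist1h2bg rose by 0.32 ± 0.11 (SE; adjusted p = 0.0353) and Hist1h2ad, an H2A gene, by 0.67 ± 0.23 (SE; adjusted p = 0.0357). Hist2h2be, an H2B gene with a long 3′ UTR and no stem-loop, fell by 0.44 ± 0.12 on the log2 scale (SE; adjusted p = 0.00548), from a median of 5.36 CPM (3.14 to 8.98) to 4.32 CPM (2.49 to 6.18); its mean was lower in the tagged set in each genotype, and the sets overlapped in each.

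Leaving out 1 library at a time, 29 in all, kept the calls of Hist1h1c, Hist1h1d, Hist1h1e, Hist1h3a, Hist1h3c, Hist2h2be and Hist4h4 each time. The filter on low counts was not run again, so this does not show whether Hist1h3c would still enter the test. Hist1h4c was no longer called without any 1 of 8 libraries (replicates 39, 42, 44, 49, 50, 51, 52 and 61; adjusted p up to 0.0771). Hist1h2bg lost its call without any 1 of 8 (replicates 34, 39, 43, 51, 52, 58, 60 and 62; adjusted p up to 0.124), and Hist1h2ad without any 1 of 10 (replicates 39, 40, 44, 48, 49, 50, 51, 56, 58 and 62; adjusted p up to 0.167). Other processing ended the same 3 calls. Hist1h4c was lost with RLE factors, no filter on low counts, no library under 10000000 counts and DESeq2 (adjusted p up to 0.0693), Hist1h2bg with RLE factors, total counts, no filter and the first title number (up to 0.0781), and Hist1h2ad with RLE factors, total counts and no filter (up to 0.0778). The other 8 calls were kept in these 8 settings.

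The second of the 3 numbers that end each title takes 2 values and may or may not mark the 2 library batches that the labels mention. All tagged APPPS1_NLRP3 libraries have the value 2, so within value 1 the difference is over 3 genotypes. Several arms then hold 1 library, which the fit assumes to vary like the others: untagged WT (replicate 40) and tagged NLRP3 (51) in value 1, and tagged WT (60), tagged APPPS1 (56) and untagged NLRP3 (42) in value 2. The values below are therefore given for their size, and a call lost there says nothing of stability. Within value 1, 0.53% of all genes and 1 histone gene, Hist1h3a, were called, and within value 2, 11.3% of all genes and 6 histone genes. Hist4h4 differed by 1.26 (adjusted p = 0.0861) within value 1 and by 1.11 (adjusted p = 0.00461) within value 2. Hist1h1d differed by 1.05 (adjusted p = 0.0794) and 1.09 (adjusted p = 0.0278), Hist1h1e by 1.19 (adjusted p = 0.106) and 0.89 (adjusted p = 0.0397), and Hist1h3a by 2.26 (adjusted p = 0.0398) and 1.62 (adjusted p = 0.0366). Hist1h1c differed by 0.41 (adjusted p = 0.351) and 0.36 (adjusted p = 0.0604). Hist1h3c differed by 2.24 (adjusted p = 0.260) and 2.79 (adjusted p = 0.0258), and Hist2h2be by −0.31 (adjusted p = 0.662) and −0.66 (adjusted p = 0.0179).

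Other values moved with the tag. The 6 neuron markers were all lower in the tagged libraries, with a median log2 difference of −2.64, and their summed level was 3.35 to 48.2 CPM (median 13.4) against 12.3 to 514 CPM (median 86.0). Of the astrocyte markers 3 of 5 were lower, of the oligodendrocyte markers 2 of 5 and of the endothelium markers 2 of 5, and no marker was at 0 in every library. Of the microglia markers 1 of 8 was lower, Cx3cr1 (−0.57), of the T and NK cell markers 1 of 3 and of the B cell markers 1 of 2, and markers of neutrophils, erythroid cells, monocytes and border macrophages gave no call. Rn7sk, a small nuclear RNA without a poly(A) tail, looked at after its values were seen, rose by 0.83 ± 0.17 (SE; adjusted p = 0.000372), from a median of 8.72 CPM (4.88 to 19.96) to 15.5 CPM (7.91 to 27.6). By genotype Rn7sk differed by 0.53 in WT (adjusted p = 0.69), 1.37 in NLRP3 (adjusted p = 0.0151), 0.11 in APPPS1 (adjusted p = 0.888) and 1.33 in APPPS1_NLRP3 (adjusted p = 0.0447). Rpph1, another RNA without a poly(A) tail looked at in the same way, differed by 0.74 ± 0.35 (SE; adjusted p = 0.137) in the mean and by −0.84 in APPPS1 (adjusted p = 0.435). The part of these in the histone differences was not tested.

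Within single genotypes fewer histone genes passed the test. In WT no histone gene was called (0.227% of all genes), 4 of 36 had an unadjusted p under 0.05, and DESeq2 called 1, Hist1h3a. For counts at an unadjusted p, here and below, no share over all genes is given, so they describe the histone genes only. Hist1h3a lay at 1.52, 2.56 and 1.46 CPM tagged and at 0.403, 0.217 and 0.160 CPM untagged. The 3 smallest p belonged to Hist1h3a at 2.80 ± 0.72 (SE; adjusted p = 0.0687), Hist4h4 at 1.21 ± 0.38 (SE; adjusted p = 0.134) and Hist1h1e at 1.21 ± 0.43 (SE; adjusted p = 0.222). For each of these 3 genes the tagged and untagged WT libraries did not overlap.

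In NLRP3, 4 histone genes rose and none fell, against 6.85% of all genes called. Hist1h3a lay at 1.48, 1.11 and 2.02 CPM tagged and at 0.122, 0.265, 0.228 and 0 CPM untagged, a log2 difference of 2.94 ± 0.71 (SE; adjusted p = 0.0101). Hist4h4 rose by 1.43 ± 0.36 (SE; adjusted p = 0.0117) and Hist1h1d by 1.22 ± 0.37 (SE; adjusted p = 0.0321). Hist1h3c had 41 counts in the tagged and 3 in the untagged libraries, a depth-scaled ratio of 16.3 (95% exact interval 5.19 to 82.0, counting error only; adjusted p = 0.0179). Since no untagged library reached the filter's level for Hist1h3c, it entered the test through libraries where it is high, and its call is a description. The sets were apart for the other 3. These calls were lost without single libraries: Hist1h3a without replicate 47 or 50 (adjusted p up to 0.0567), Hist4h4 without 47, 50 or 51 (up to 0.0744), Hist1h3c without 47, 50 or 51 (up to 0.112), and Hist1h1d without 45, 47, 50, 51 or 55 (up to 0.149). Hist1h1d was also lost with RLE factors, total counts, the first title number and no library under 10000000 counts (up to 0.0593). The untagged NLRP3 libraries all read as male and the tagged ones as 1 female and 2 male.

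In APPPS1, 1 histone gene rose and 1 fell, against 6.49% of all genes. Hist4h4 rose by 1.01 ± 0.31 (SE; adjusted p = 0.0395) with no overlap, and was not called without any 1 of replicates 35, 38, 41, 56, 57 and 59 (adjusted p up to 0.101). The untagged libraries read as female and the tagged ones as 1 female and 3 male, and with sex as a further term Hist4h4 was not called, nor with the first title number or without the library under 10000000 counts (adjusted p up to 0.228). Hist1h2bc lay at 48.3, 54.3, 49.5 and 55.4 CPM tagged and at 70.9, 128.6, 52.9, 66.7 and 109.3 CPM untagged, and fell by 0.69 ± 0.17 on the log2 scale (SE; adjusted p = 0.0154). One untagged library lay among the tagged ones, and the call was lost without replicate 35, 41 or 56 (adjusted p up to 0.0821) and with the first title number or no library under 10000000 counts (up to 0.0602). The untagged APPPS1 libraries also serve the contrasts with WT and with age below.

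APPPS1_NLRP3 had 4 rises and no fall, against 1.18% of all genes. Hist1h1d rose by 2.59 ± 0.36 (SE; adjusted p = 5.06e-05) and Hist1h1c by 1.21 ± 0.20 (SE; adjusted p = 0.00138), and both stayed called without any 1 of the 7 libraries. Hist1h2ad lay at 2.05, 2.07 and 1.95 CPM tagged against 0.455, 0.442, 0.977 and 0.715 untagged, a rise of 1.75 ± 0.46 (SE; adjusted p = 0.0438). Hist1h4c lay at 3.14, 5.19 and 3.59 CPM against 0.637, 1.01, 2.00 and 2.10, a rise of 1.42 ± 0.39 (SE; adjusted p = 0.0496). None of the 4 overlapped. Without any 1 of replicates 44, 49, 52, 53 and 54 the last 2 were not called (adjusted p up to 0.175 and 0.206). Both were also lost with RLE factors, total counts, no filter, the first title number and sex, and Hist1h2ad without the title term (up to 0.103 for Hist1h4c and 0.115 for Hist1h2ad). The untagged libraries read as male and the tagged ones as 2 female and 1 male.

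Whether the tag difference itself differed between genotypes was tested as an interaction. For transgenic minus non-transgenic mice no histone gene was called (0.0% of all genes), 3 had an unadjusted p under 0.05, and DESeq2 called 0. The smallest p were those of Hist1h3a at −2.14 ± 0.65 (SE; adjusted p = 0.488), Hist1h2be at 0.42 ± 0.15 (SE; adjusted p = 0.541) and Hist1h1d at 0.94 ± 0.36 (SE; adjusted p = 0.547). For mice without minus with Nlrp3 none was called (0.403% of all genes), 7 had an unadjusted p under 0.05, and DESeq2 called 1, Hist1h2bc. Here the smallest p were those of Hist1h2bc at 0.73 ± 0.20 (SE; adjusted p = 0.0799), Hist1h1d at 1.21 ± 0.36 (SE; adjusted p = 0.119) and the H3 gene Hist1h3d at 0.86 ± 0.29 (SE; adjusted p = 0.180). The untagged libraries with Nlrp3 all read as female and those without it as male, while each tagged group holds both sexes. In this interaction Nlrp3 and sex therefore cannot be told apart.

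Genes that act on histones were read from lists in the same mean comparison, where the median of all genes was −0.02 and 19% of all genes were called (the shares of the chaperones and variants below are close to this). Of 24 genes of histone mRNA processing, 8 rose and none fell (median 0.05), led by Pcf11, a cleavage and termination factor (0.34 ± 0.09), Ncbp3, a cap-binding protein (0.18 ± 0.05), Fip1l1, a poly(A) polymerase partner (0.19 ± 0.06), and Smg1, a kinase of mRNA decay (0.25 ± 0.07). Slbp, which binds the stem-loop and was picked after its value was seen, differed by −0.13 ± 0.06 (adjusted p = 0.0872). Of 22 chaperone genes 2 rose and 2 fell (median 0.00), namely Cabin1 (0.19) and Atrx (0.14), which work in H3.3 deposition, and Rbbp7 (−0.18) and Nap1l1 (−0.19), carriers of H3-H4 and H2A-H2B. Of 11 replication-independent variants 1 rose and 1 fell (median −0.16). H3f3b, which encodes H3.3 from a polyadenylated mRNA, rose by 0.84 ± 0.09 (SE; adjusted p = 9.42e-09), and H2afy2, a macroH2A gene, fell by 1.07 ± 0.33 on the log2 scale (SE; adjusted p = 0.0149).

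In the lists of dividing cells 2 genes were called. In the S phase and replication list 1 of 24 genes rose, the licensing factor Cdt1 (0.30 ± 0.11, SE; adjusted p = 0.0479), and the median was −0.08. In the G2 and mitosis list 1 of 16 rose, the chromatin protein Hmgb2 (0.48 ± 0.08, SE; adjusted p = 8.75e-06), and the median was 0.01; Mki67, picked after its value was seen, differed by 0.40 (adjusted p = 0.106). Summed levels of the S phase list were 380.1 to 481.6 CPM tagged and 322.9 to 573.0 CPM untagged, and those of the G2 list 128.1 to 274.4 and 90.6 to 297.0 CPM.

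The APP/PS1 transgenes were compared within age. In APPPS1 minus WT at 12 months 13 of 16 G2 and mitosis genes and 8 of 24 S phase genes rose, with medians of 1.26 and 0.42, while 3 of 36 histone genes rose and 1 fell, against 18.1% of all genes called. The histone median was 0.57, beside −0.08 over all genes. Hist1h2bc lay at 70.9, 128.6, 52.9, 66.7 and 109.3 CPM in APPPS1 and at 48.5, 46.5 and 45.5 CPM in WT, a rise of 0.88 ± 0.19 (SE; adjusted p = 0.000546) with no overlap. Hist1h2be, another H2B gene, fell by 0.63 ± 0.15 on the log2 scale (SE; adjusted p = 0.00127), from 20.01, 17.1 and 12.6 to 10.2, 9.76, 12.2, 12.6 and 8.24 CPM, and the sets met at 12.6 CPM. Both stayed called without any 1 of the 8 libraries. For both genes APPPS1_12m replicates 35 and 41 lay furthest from WT. They have the 2 lowest TMM factors of all libraries, 0.790 and 0.745. They are also the only ones of their group with second title number 2. Leaving out 1 library at a time cannot show how far the calls rest on these 2 together. Hist1h1c rose by 0.67 ± 0.20 (SE; adjusted p = 0.0125), but not without APPPS1_12m replicate 41 (0.54; adjusted p = 0.0679) nor with total counts or the first title number (adjusted p up to 0.0921). Hist1h4i, an H4 gene, rose by 1.10 ± 0.34 (SE; adjusted p = 0.0159), from 2.22, 2.13 and 1.23 to 4.10, 4.78, 3.26, 2.60 and 5.64 CPM; without replicate 39 or 41 it was not called (adjusted p up to 0.113).

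In mice without Nlrp3 the same contrast at 12 months called no histone gene (8.73% of all genes; 4 at an unadjusted p under 0.05; DESeq2 0), while 12 of 16 G2 genes and 7 of 24 S phase genes rose. At 6 months it called 1 (8.14% of all genes), Hist1h1c, at 51.4, 36.1, 38.9, 43.1 and 68.4 CPM in APPPS1_NLRP3 against 38, 22.1, 30.4 and 29.3 in NLRP3. The rise was 0.65 ± 0.18 (SE; adjusted p = 0.0134), was lost without replicate 26, 29 or 33 (adjusted p up to 0.101) and with total counts (0.0557), and stood beside 12 of 16 G2 and 12 of 24 S phase genes that rose. APPPS1 minus WT at 6 months called none (3.07% of all genes; 3 at an unadjusted p under 0.05; DESeq2 0), with 7 of 16 G2 genes and 1 of 24 S phase genes up. At 4 months neither genotype pair gave a histone call (0.0252% and 0.0101% of all genes; 1 and 17 at an unadjusted p under 0.05; DESeq2 0 in both), and 0 of 16 G2 and 0 of 24 S phase genes were called in either. The counts of 1 and 17 have no share over all genes beside them and are descriptions. In APPPS1_NLRP3 minus NLRP3 at that age 33 of the 36 differences were negative, with a median of −0.75 and a smallest adjusted p of 0.497; the NLRP3_4m libraries return in the contrasts with WT and with age below.

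**Figure D5:**
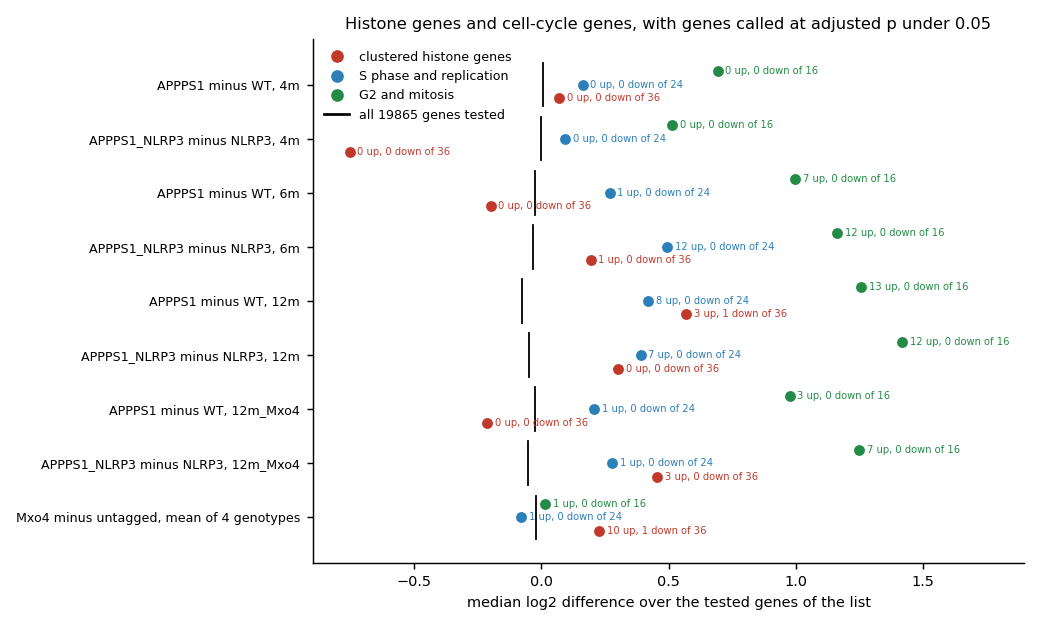
Median log2 difference of the tested histone genes, the S phase list, the G2 and mitosis list and all genes in 9 comparisons, with the number of genes called beside each point. In APPPS1 minus WT at 12 months the G2 and mitosis median is 1.26 and the histone median 0.57; in the tag comparison over 4 genotypes they are 0.01 and 0.23.

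In the tagged libraries APPPS1_NLRP3 minus NLRP3 gave 3 rises (5.19% of all genes). Hist1h2bc lay at 107.7, 84.8 and 86.0 CPM against 58.8, 41.5 and 40.6, a rise of 0.94 ± 0.21 (SE; adjusted p = 0.00257). Hist1h1c rose by 0.94 ± 0.22 (SE; adjusted p = 0.00337) and Hist1h1d by 1.36 ± 0.38 (SE; adjusted p = 0.0197). The sets were apart for all 3; the call of Hist1h1d was lost without replicate 50, 52 or 55 (adjusted p up to 0.167) and with the first title number (0.0971), and the others were kept. Here 7 of 16 G2 genes and 1 of 24 S phase genes rose. This contrast shares the tagged APPPS1_NLRP3 libraries with the tag comparison above. Tagged APPPS1 minus tagged WT gave no histone call (5.1% of all genes; 2 at an unadjusted p under 0.05; DESeq2 0), with 3 of 16 G2 genes and 1 of 24 S phase genes up.

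Few histone genes were called for the loss of Nlrp3. In NLRP3 minus WT at 4 months 2 rose, against 0.398% of all genes. Hist1h1c lay at 44.7, 64.0, 64.1 and 90.9 CPM against 24.4, 39.1, 33.8 and 31.9, a rise of 1.04 ± 0.19 (SE; adjusted p = 0.00161) that was kept without any 1 library, and without replicate 15 was 0.82 (adjusted p = 0.0436). Hist1h1e lay at 6.46, 10.9, 9.90 and 22.4 CPM against 5.77, 5.10, 3.05 and 3.24, a rise of 1.53 ± 0.37 (SE; adjusted p = 0.0403). Neither overlapped, but the call of Hist1h1e was lost without any 1 of replicates 1, 4, 5, 7, 10, 12 and 15 (adjusted p up to 0.387) and with total counts or the first title number (up to 0.123). In these 2 groups 0 of 16 G2 and mitosis genes and 0 higher and 1 lower of 24 S phase genes were called.

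At 12 months APPPS1_NLRP3 minus APPPS1 gave 1 rise and 1 fall (6.18% of all genes). Hist1h2be lay at 19.9, 15.9, 14.5 and 15 CPM, all above the values of the same APPPS1_12m libraries given above, a rise of 0.61 ± 0.14 (SE; adjusted p = 0.00701; 0.0534 without APPPS1_NLRP3_12m replicate 49). Hist1h2bc lay at 69.6, 46.1, 52.3 and 61.7 CPM and fell by 0.57 ± 0.17 on the log2 scale (SE; adjusted p = 0.0381) with overlap; the call was lost without replicate 35, 41, 43, 44 or 46 (adjusted p up to 0.194) and with total counts, the first title number, sex or no library under 10000000 counts (up to 0.133). With sex as a further term Hist1h2be was not called either (0.54; adjusted p = 0.0964). All APPPS1_NLRP3_12m libraries read as male and all APPPS1_12m libraries as female, so within these groups sex and genotype cannot be told apart, and the sex term rests on the other groups. The other 6 contrasts for Nlrp3 gave no histone call. NLRP3 minus WT had 5 genes at an unadjusted p under 0.05 at 6 months, 0 at 12 months and 1 in the tagged libraries, with 0.488%, 1.59% and 0.101% of all genes called. APPPS1_NLRP3 minus APPPS1 had 0 at 4 months, 5 at 6 months and 12 in the tagged libraries, with 0.237%, 0.508% and 0.337% of all genes called. DESeq2 called 1 histone gene in the last of these, Hist1h1c, and 0 in the other 5. In that last contrast 33 of the 36 differences were positive, with a median of 0.62 and a smallest adjusted p of 0.0565.

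Age was compared as 12 minus 4 months in untagged libraries. In NLRP3, 7 histone genes fell and none rose, against 0.448% of all genes, and the histone median was −0.87 beside 0.00 over all genes. Hist1h1d lay at 9.72, 18.2, 13.2 and 32.1 CPM at 4 months and at 6.52, 4.38, 5.76 and 2.90 CPM at 12 months, a difference of −1.80 ± 0.35 (SE; adjusted p = 0.00504) with no overlap. Hist1h2ac, an H2A gene, lay at 5.71, 9.10, 9.47 and 14.9 CPM at 4 months and at 4.02, 3.36, 3.76 and 2.90 CPM at 12 months. It differed by −1.41 ± 0.31 (SE; adjusted p = 0.0217) and Hist1h3a by −3.07 ± 0.68 (SE; adjusted p = 0.0237), both without overlap. Hist1h2ad (−1.90; adjusted p = 0.0355) and Hist1h2bg (−0.87; adjusted p = 0.0360) followed, and Hist1h3c fell from 85 to 3 counts, a depth-scaled ratio of 21.1 (95% exact interval 6.97 to 104.3, counting error only; adjusted p = 0.0360). Hist1h3c reached the filter's level in 10 of 61 libraries and is highest in NLRP3_4m, so it entered the test through libraries where it is high and its call is a description. Hist4h4, a seventh gene named beyond the rule of 6, differed by −1.39 (adjusted p = 0.0366). The 4-month libraries are those of the contrast with WT above, all female, while the 12-month ones are all male, so sex and age cannot be told apart. The 12-month libraries are also the untagged ones of the NLRP3 tag comparison, so the falls here and the rises there are not independent.

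These 7 calls rest on few libraries. Without NLRP3_4m replicate 15 none of the 36 was called, and the difference of Hist1h1d was −1.32 (adjusted p = 0.112). Without replicate 47 none of the 7 calls held either, and without 45 or 48 the calls of Hist1h2ac, Hist1h2ad, Hist1h2bg, Hist1h3a, Hist1h3c and Hist4h4 were lost. Hist1h2ad, Hist1h2bg, Hist1h3c and Hist4h4 also lost theirs without replicate 10 or 12, and Hist1h3c without 42; adjusted p reached 0.236 at most, for Hist1h2bg. With the first title number only the call of Hist1h1d held, and with sex or without libraries under 10000000 counts only those of Hist1h1d and Hist1h3a. Hist1h2bg and Hist4h4 were also lost with RLE factors and total counts, and Hist1h2ad with no filter and without the title term (adjusted p up to 0.181 over these settings). In this contrast 0 of 24 S phase genes and 0 of 16 G2 and mitosis genes were called.

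In APPPS1, 2 histone genes rose with age and 1 fell, against 22.4% of all genes. Hist1h2bc rose from 47.5, 34.6 and 38.4 CPM to the 12-month values above, by 1.07 ± 0.19 (SE; adjusted p = 3.12e-05), and Hist1h2be fell from 20.4, 19 and 14.3 CPM by 0.75 ± 0.15 on the log2 scale (SE; adjusted p = 0.00012). Neither overlapped, and both stayed called without any 1 of the 8 libraries. The 12-month libraries are those of the contrast with WT. Within second title number 1, which holds neither replicate 35 nor 41, the age call of Hist1h2bc was kept and that of Hist1h2be was not. This fit holds fewer libraries, and the reason for the lost call was not tested. The contrast with WT has 1 WT library there (replicate 40), so it cannot show how far its calls rest on replicates 35 and 41. Hist1h4i rose by 0.87 ± 0.33 (SE; adjusted p = 0.0493), but not without any 1 of replicates 2, 3, 6, 35, 38 and 41 (adjusted p up to 0.163). It was lost in 7 of 8 other settings too, all but DESeq2 (adjusted p up to 0.134). In APPPS1_NLRP3 only Hist1h1d was called (12.1% of all genes), lower by 12 months from 13.7, 9.92, 10.9 and 8.11 CPM, with a difference of −1.02 ± 0.33 (SE; adjusted p = 0.0323) that was lost without replicate 9, 11, 14, 43, 46 or 49 (adjusted p up to 0.165). The APPPS1_NLRP3 libraries all read as female at 4 months and as male at 12 months, so here too sex and age cannot be told apart. WT gave no histone call (0.0302% of all genes; 3 at an unadjusted p under 0.05; DESeq2 0).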

How the data were processed

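The deposited values are counts per gene and library, with 53801 identifiers and 62 libraries. Per the labels, RNA of CD11b+ cells was made into libraries with SMART-Seq v4 in 2 batches and sequenced as paired reads of 125 bases. The submitters' processing notes name Trimmomatic, TopHat, HTSeq and mm10; versions, the strand setting and the treatment of reads with several matches are not given in the sources used here. No molecular identifiers are mentioned, so intervals cover counting error only.

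Identifiers were named from GENCODE vM21 (GRCm38). Counts were tested with the quasi-likelihood F test of edgeR 4.0.16 in R 4.3.3: all 62 libraries were fitted together with TMM factors, the 16 groups and the second title number as terms, after filterByExpr (minimum count 10, minimum total 15). The 27 comparisons were adjusted by Benjamini-Hochberg over the 19865 genes tested in each, two-sided, and called under 0.05. The script was checked on simulated counts. A standard error is the size of the difference over the root of its F value.

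Histone genes and lists were chosen with earlier results of these data known. Named were the 16 genes of highest mean CPM, up to 10 called histone genes in a tag comparison and 6 in any other, the 3 of smallest p where none was called, up to 4 called genes of each other list, and Nlrp3. In the tag comparison over 4 genotypes the eleventh called gene, Hist1h2ad, is named besides. Alternatives were RLE factors, total counts, no filter, no title term, the first title number or sex as a further term, no library under 10000000 counts, DESeq2 1.42.0, leaving out each library, and, chosen after seeing the data, fits within 1 value of the second title number. Each leave-out kept the genes tested and the trend of the spread from the fit of all libraries. Sequences came from GENCODE vM21 transcripts on GRCm38 (stem-loops) and RefSeq GRCm38.p6 (promoters).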

Additional observations from a re-analysis of the deposited data

Results flagged for a closer look

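In each group of 4 or 5 usable libraries 12 values were checked, the summed histone level and the 11 genes called in the mean tag comparison, 120 checks in all. In 4 of them a library stood apart from its group by a gap that chance gives in about 1 of 20 checks, so 6.0 would be expected. The summed histone level of NLRP3_12m replicate 45, a library of 1394435 counts, was 162.7 CPM, below 201.4 to 205.9 CPM in the other libraries. APPPS1_NLRP3_12m replicate 49 stood apart for 3 genes: Hist1h1e at 8.55 CPM above 3.71 to 4.42, Hist1h3a at 0.182 CPM below 0.695 to 0.760, and Hist4h4 at 5.18 CPM below 9.41 to 10.1.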

How the results depend on the processing

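Of 44 single-gene calls none turned its direction in any alternative, and 16 were kept without each single library. Of the 8 settings other than fits within 1 title number, the first title number ended most calls, 17, and DESeq2 fewest, 1. No paired analysis was possible because no replicate number is shared between groups. Counts of called histone genes that moved by more than 1.5 times follow, and the cause was not tested. Except for the mean tag comparison within title numbers, the share of all genes called in each setting or leave-out is not given. A change in these counts therefore cannot be told apart from a change over all genes. Fits within 1 title number have fewer samples, and an arm of 1 library for WT_12m (replicate 40) and tagged NLRP3 (51) in number 1, and for NLRP3_12m (42), APPPS1_4m (6), tagged WT (60) and tagged APPPS1 (56) in number 2, so calls lost there say nothing of stability.

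For tagged minus untagged WT, 0 became 1 with DESeq2. For NLRP3, 4 became 0 within title number 1 and within 2. For APPPS1, 2 became 0 with the first title number, without libraries under 10000000 counts and within number 1, and 1 with sex or within number 2. For APPPS1_NLRP3, 4 became 2 with RLE, total counts, no filter, the first title number, sex or within number 2. The mean over genotypes went from 11 to 1 within number 1 and to 6 within number 2. The Nlrp3 interaction went from 0 to 1 with DESeq2, without the title term and within number 2.

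For APPPS1 minus WT at 12 months, 4 became 0 within number 1. For APPPS1_NLRP3 minus NLRP3, 1 became 0 at 6 months with total counts and within number 1, and 0 became 1, Hist3h2a, at 12 months with the first title number. For NLRP3 minus WT at 4 months, 2 became 1 with total counts and the first title number, and 0 within either number. For APPPS1_NLRP3 minus APPPS1 at 12 months, 2 became 1 with total counts, the first title number or no library under 10000000 counts, and 0 with sex or within number 1. In the tagged libraries this contrast went from 0 to 1 with DESeq2, no filter, sex, total counts or no library under 10000000 counts, to 3 without the title term and to 2 within number 2.

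For 12 minus 4 months in NLRP3, 7 became 1 with the first title number, 2 with sex or no library under 10000000 counts, and 0 within either number. In APPPS1, 3 became 1 within number 1 and 5 within number 2. In APPPS1_NLRP3, 1 became 2 with sex and 0 within either number.

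Leaving out 1 library gave, for tagged minus untagged, 0 to 5 calls in NLRP3, 0 to 3 in APPPS1, 2 to 4 in APPPS1_NLRP3, 8 to 12 in the mean and 0 to 1 in the Nlrp3 interaction. For APPPS1_NLRP3 minus NLRP3 it gave 0 to 1 at 6 months, 0 to 1 at 12 months and 2 to 6 in the tagged libraries, and for APPPS1 minus WT at 12 months 2 to 5. For NLRP3 minus WT at 4 months it gave 1 to 3, and for APPPS1_NLRP3 minus APPPS1 1 to 2 at 12 months and 0 to 1 in the tagged libraries. For age it gave 0 to 8 in NLRP3, 2 to 4 in APPPS1 and 0 to 2 in APPPS1_NLRP3.

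Within number 1, which holds no tagged APPPS1_NLRP3 library, the mean was taken over 3 genotypes and the other comparisons with that group could not be run. At 1394435 counts, 1 count in NLRP3_12m replicate 45 is close to 1 CPM, so its zeros for low genes are not absences.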
